A study of Mus musculus with 4 samples.

Results

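Inflammasome and pyroptosis genes were examined as a group of 10 among 21887 protein-coding genes: the sensors Nlrp3, Nlrc4, Naip2 and Mefv, the adaptor Pycard, the proteases Casp1, Casp4 and Casp8, the pore protein Gsdmd and the cytokine Il18. They were taken by name and not by a cut on measured values, though earlier results of these data were known when they were chosen. The data are chromatin immunoprecipitation sequencing of trimethylated histone H3 lysine 4 (H3K4me3), which marks promoters in use or ready for use, and of trimethylated histone H3 lysine 9 (H3K9me3), a mark of silenced chromatin. All 4 libraries came from peritoneal macrophages of 8-week-old C57BL/6 mice that had been elicited with thioglycollate broth and left to adhere. The cultures had received either lipopolysaccharide (LPS) or phosphate-buffered saline (PBS) for 24 h, with 1 library for each mark and treatment. The labels name no genetic change in any sample, and they do not say how many animals a library came from.

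Inflammasomes are protein platforms that assemble in the cytosol when a sensor meets a microbial product or a sign of damage. In the canonical form a sensor recruits the adaptor ASC, which gathers and activates caspase-1. Caspase-1 then matures interleukin 1 beta and interleukin 18 and cuts gasdermin D, whose fragments form pores and kill the cell by pyroptosis. In mouse macrophages LPS acts on this pathway at separate points: through Toll-like receptor 4 it primes expression of several components, and in the cytosol it binds caspase-11, the product of Casp4.

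The deposited tables list peaks that were called in each library on its own. H3K4me3 was read from the peaks within 1 kb of a gene end, taking the end that held more tags in the pair of libraries, and H3K9me3 from peaks over the gene body. The filtered libraries held 26748289 to 29681491 tags, and the smallest listed peaks 11 to 17 tags. Because there was 1 library per group, no difference between LPS and PBS has a replicate check, and no test between treatments could be made. Intervals are exact 95% intervals that cover counting error only. A gene without a listed peak lay under the threshold of the peak caller in that library, which does not show that the mark was absent. All 10 macrophage markers examined, among them Csf1r and Adgre1, had an H3K4me3 peak at a gene end in at least 1 list, and 9 of them in both. Of 20 markers of other cell types, 10 had no peak in either list, including the T cell genes Cd3e, Cd3g and Lck, while 4 had one in each list, 2 had one in LPS alone and 4 in PBS alone. The B cell gene Cd79a had 256 tags in LPS and 354 in PBS, and Pdgfrb, a gene of mesenchymal cells, had 188 and 62 (log2 ratio 1.75), a higher ratio than that of any member. The Pdgfrb peaks covered 2.65 kb in LPS and 0.72 kb in PBS, and per covered kb the log2 ratio was -0.13. Kit and Epcam were also in each list. The neutrophil genes S100a8 and Camp had 21 and 56 tags in LPS alone, and Upk3b, Krt19, Col1a2 and Mmp8 had 101, 33, 79 and 19 in PBS alone. What part other cells had in the values below was not tested.

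Every member carried H3K4me3 at a gene end in at least 1 library. A peak was present in each list for 9 of the 10 genes, where all protein-coding genes gave 60.1%. Listed in LPS but not PBS were 0 members (1.26% of all genes), and listed in PBS but not LPS was 1, Casp4 (3.14%). The levels were modest: the median member with a peak held 94 tags in LPS, where the median of all gene ends with a peak was 197, and 92 tags in PBS, where it was 281. Below those medians lay 7 of 9 members in LPS and 8 of 10 in PBS. The general run of gene ends was lower in LPS, with a median of -0.36 for the log2 ratio of LPS to PBS, scaled by filtered tags, over the 13151 gene ends with a peak in both lists. All listed H3K4me3 peaks together held 14.0% of the filtered tags in LPS and 17.8% in PBS. The part of this gap between the libraries in the ratios was not tested. The 9 members had a median of -0.24, with 6 above the median of all gene ends and 3 below it. Per covered kb, the median was -0.21 for all gene ends and 0.01 for the 9 members. At least 2-fold higher in LPS were 0 of 9 members, against 0.395% of all gene ends, and at least 2-fold higher in PBS was 1 of 9, Naip2, against 3.81%. Relative to the median gene end, 0 of 9 members were 2-fold above it or 2-fold below it, against backgrounds of 1.1% and 1.24%. In bulk samples, less of the mark per cell and fewer cells that carry it cannot be told apart.

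**Figure D1:**
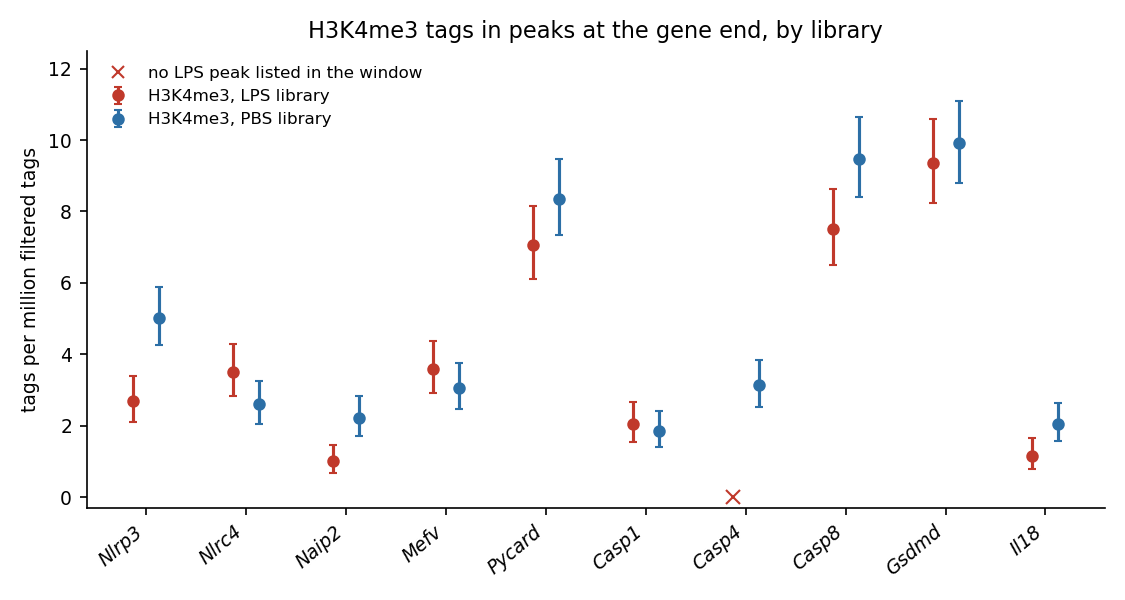
H3K4me3 level (CPM, tags scaled by the filtered tags of the library) in the peaks within 1 kb of the gene end, for each of the 10 members in the LPS library (red) and the PBS library (blue); bars are exact 95% counting intervals and the cross marks the lack of a listed LPS peak at Casp4. Gsdmd, Casp8 and Pycard stand highest in both libraries, between 7.07 and 9.91, and Nlrp3 and Naip2 show the widest gaps between libraries in relative terms among genes listed in both.

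Nlrp3, the sensor of potassium loss and membrane damage, whose expression is primed by LPS, lies on chromosome 11 (59541569 to 59566955, build mm10). Its gene end had 72 H3K4me3 tags in LPS and 149 in PBS, a log2 ratio of -0.90 (-1.33 to -0.48). The LPS peak was also the shorter, 1.01 kb against 2.02 kb, and per covered kb the ratio was 0.11. The LPS peak was a weak call, with a score of 52.95 where the list starts at 50, and it ended 118 bp before the first annotated start of the gene. The PBS peak ran across that start, and a second PBS peak of 142 tags began 191 bp after the other annotated start, where the LPS list had nothing. A site inside the gene, about 13 kb from the start, went the other way, at 111 tags in LPS against 65 in PBS (0.92, 0.47 to 1.39; 0.11 per covered kb). Over the whole gene, widened by 1 kb on either side, Nlrp3 had 183 tags in LPS and 356 in PBS (-0.81, -1.08 to -0.55).

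The 250 bases before that first start of Nlrp3 are shown with those before Casp4, because both starts lay in a PBS peak and outside any LPS peak, and because these were the member promoters in which a kappaB site, the binding motif of NF-kB, was found. The start of Naip2 also lay in a PBS peak and outside any LPS peak, and it had no kappaB match. A link between the motif and the peaks was not tested. The sequences are from RefSeq, build GRCm38.p6, and capitals mark the kappaB matches on either strand and, in Nlrp3, a CCAAT box nearer the start. They lie at chr11:59541319-59541568 and chr9:5308599-5308848, both on the plus strand.
Nlrp3: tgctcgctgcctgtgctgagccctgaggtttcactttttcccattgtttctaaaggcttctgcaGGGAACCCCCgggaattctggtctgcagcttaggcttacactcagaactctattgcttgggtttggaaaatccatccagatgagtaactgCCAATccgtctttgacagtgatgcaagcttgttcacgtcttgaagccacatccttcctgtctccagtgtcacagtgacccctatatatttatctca
Casp4: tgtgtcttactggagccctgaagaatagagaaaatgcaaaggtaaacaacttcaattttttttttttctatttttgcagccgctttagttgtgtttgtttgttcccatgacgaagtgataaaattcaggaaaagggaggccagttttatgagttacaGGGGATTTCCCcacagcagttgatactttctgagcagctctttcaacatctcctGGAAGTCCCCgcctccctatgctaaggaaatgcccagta

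Casp4 encodes caspase-11, the sensor of cytosolic LPS in the non-canonical pathway, and lies on chromosome 9 (5308849 to 5336791). In PBS 1 peak of 93 tags over 1.45 kb covered both annotated starts, with a score of 201.33. The LPS list had no peak within 1 kb of either gene end. Its nearest peak began 2.37 kb inside the gene with 37 tags, and another followed at 4.31 kb with 35 tags. Summed over the widened gene, the libraries came closer, at 72 tags in LPS and 93 in PBS (-0.22, -0.68 to 0.24). The listed H3K4me3 thus lay at the start in PBS and downstream of it in LPS. Spi1, the gene of the myeloid regulator PU.1, was also listed on 1 side at its gene end, with 503 tags in LPS and no PBS peak within 1 kb, yet over the widened gene it had 1128 tags in LPS against 869 in PBS. The kappaB matches shown above start 93, 92 and 39 bases before the first start, the 93 and 92 matches overlapping. Such a match was found before 7.91% of the 21255 annotated starts that were searched.

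Nlrc4, the platform that the NAIP receptors activate, and Naip2, which recognises a rod protein of bacterial secretion systems, work together but differed here. Nlrc4 (chromosome 17, 74426255 to 74459144) held 94 tags in LPS against 77 in PBS, the highest ratio among the members at 0.44 (-0.01 to 0.89). That interval lay above the median of all gene ends. The LPS peak was the longer, 1.74 kb against 1.26 kb, and per covered kb the ratio was -0.02. Naip2 (chromosome 13, 100144063 to 100202122) held 27 tags in LPS against 66 in PBS, the lowest ratio among the members at -1.14 (-1.84 to -0.47). A site about 1 kb inside Naip2 was alike in the libraries, with 27 and 34 tags (-0.18, -0.97 to 0.59). The rest of the gap was a peak of 32 tags over the start itself, which was listed in PBS only with a score of 50.62, just over the limit of the list. Per covered kb Naip2 came to -0.12. Naip2 has close paralogs beside it, and how reads that match several copies were placed is not given in the sources used here, so its values are uncertain.

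Mefv encodes pyrin, a sensor of the action of bacterial toxins, and lies on chromosome 16 (3706974 to 3718211). Its gene end had 96 tags in LPS and 91 in PBS, a log2 ratio of 0.23 (-0.20 to 0.66) that lay above the median of all gene ends. The LPS list held a further peak of 77 tags over 1.16 kb, which began 1.99 kb inside the gene and had no PBS counterpart. Over the widened gene Mefv therefore had 173 tags in LPS and 91 in PBS (1.08, 0.70 to 1.46), and was the member with the highest ratio over the body. Per covered kb that ratio was 0.03.

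Pycard, the gene of the adaptor ASC, is 2.495 kb long, on chromosome 7 (127991373 to 127993867), and 1 peak spanned most of it in each library. This peak held 189 tags in LPS and 248 in PBS (-0.24, -0.52 to 0.04), near the median of all gene ends. The peak covered 2.16 kb in LPS and 2.01 kb in PBS.

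**Figure D2:**
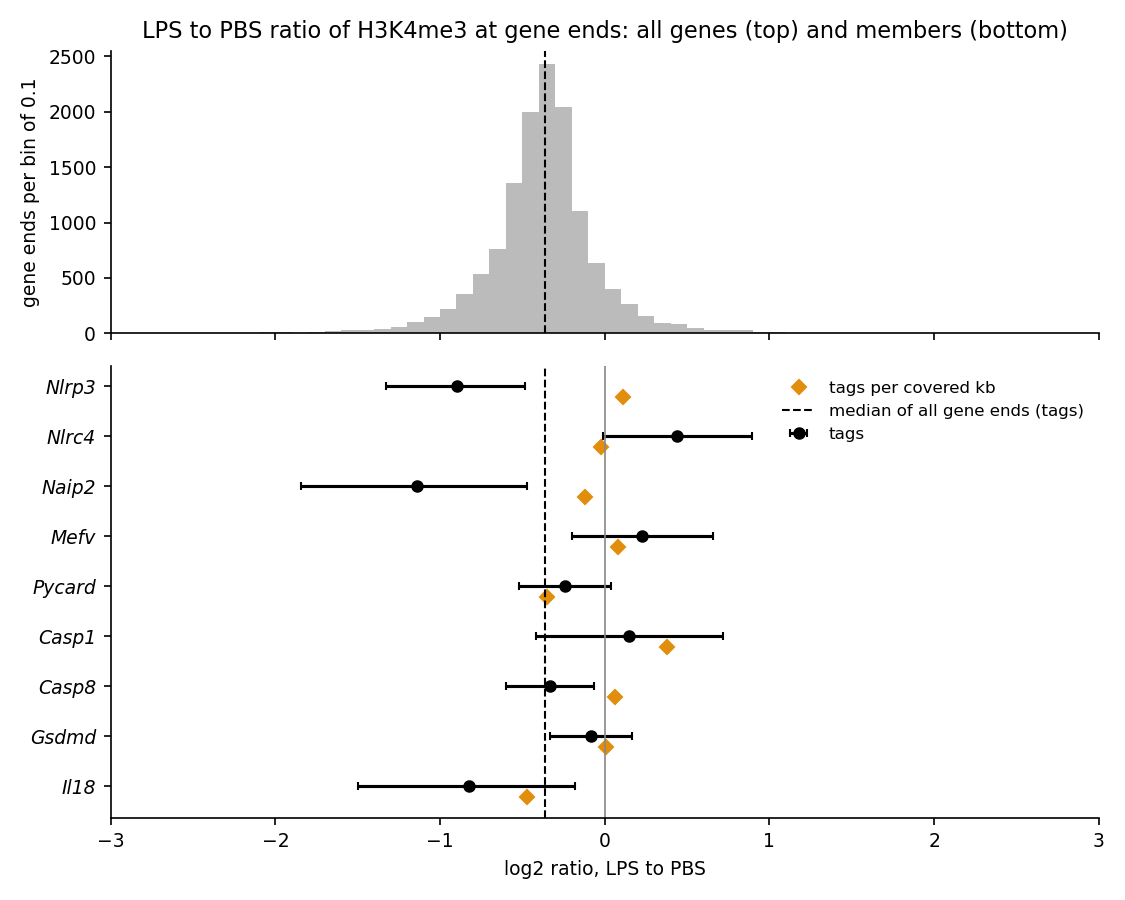
Log2 ratio of LPS to PBS H3K4me3 tags: above, the number of gene ends per bin of 0.1 for the 13151 gene ends with a peak in both lists; below, the 9 members with a peak in both (black, tags with 95% counting interval; orange, tags per covered kb). The dashed line is the median of all gene ends by tags (-0.36). Naip2 and Nlrp3 lie below it and Gsdmd, Mefv and Nlrc4 above it beyond their intervals. Most orange points lie closer to 0 than the black ones. The median of all gene ends per covered kb, -0.21, is not drawn, and most orange points lie above it, among them those of Naip2 and Nlrp3.

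Casp1, the protease that matures interleukin 1 beta and interleukin 18, lies next to Casp4 on chromosome 9 (5298517 to 5307281). It had 55 tags in LPS and 55 in PBS (0.15, -0.42 to 0.72), from a pair of small peaks on either side of the start in each library. The upstream peak had 33 and 25 tags and the downstream peak 22 and 30. The upstream peak reached across the start in LPS and stopped 53 bp short of it in PBS. Casp1 thus showed no difference between the libraries that its counts could resolve, whereas its neighbour Casp4 had a start peak in PBS only.

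Casp8, the initiator protease of apoptosis, which can also cut gasdermin D, lies on chromosome 1 (58795233 to 58847503) and was among the strongest members. At its outer end it had 201 tags in LPS and 281 in PBS (-0.33, -0.60 to -0.07), within counting error of the median gene end. At the annotated start, 7.27 kb further in, it had another pair of peaks, with 104 and 138 tags (-0.26, -0.64 to 0.12). Per covered kb the ratio was 0.06 at the outer site and -0.21 at this start, and the difference between the sites was not tested. Smaller peaks inside the gene were listed on 1 side each, 25 tags in LPS and 51 in PBS.

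Gsdmd, the gene of the pore-forming gasdermin D, lies on chromosome 15 (75862144 to 75867408) and had the most H3K4me3 tags at a gene end of the 10, 250 in LPS and 294 in PBS. Its ratio of -0.08 (-0.33 to 0.16) lay above the median of all gene ends, and the lengths were alike at 1.96 and 2.09 kb. Gsdmd, Casp8 and Pycard were the members at or near the level of the typical gene end: their tags exceeded those of 47.5% to 63.7% of gene ends with a peak in LPS and of 42.8% to 52.8% in PBS. The other members exceeded at most 18.9% in LPS and 22.0% in PBS.

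Il18, the gene of the cytokine that caspase-1 matures beside interleukin 1 beta, lies on chromosome 9 (50554700 to 50581841). At its start it had 31 tags in LPS and 61 in PBS (-0.83, -1.50 to -0.18), an interval that holds the median of all gene ends. This peak is shared with Bco2, which is read from the other strand and has an annotated start 438 bp away. Another site lay inside Il18, and it went the other way: 87 tags in LPS and 32 in PBS (1.59, 0.99 to 2.23; 0.79 per covered kb). It held more tags than the start peak in LPS and fewer in PBS. It coincides with the annotated start of Tex12, a gene of the synaptonemal complex of meiosis on the opposite strand, 6.57 kb downstream of the start of Il18. Counted as the gene end of Tex12, this site had the 17th highest ratio of 13151. Tex12 was singled out after its values were seen. Further peaks of 27 and 23 tags inside Il18 were listed in PBS only.

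The same site carried H3K9me3 in both libraries, with 96 tags in LPS, in a peak of 0.847 kb, against 48 in PBS, in a peak of 0.647 kb (0.96, 0.44 to 1.49; 0.57 per covered kb). These were strong peaks of their lists: their scores exceeded those of 99.4% of H3K9me3 peaks in LPS and 97.1% in PBS. Both marks thus had more tags in LPS than in PBS here, beyond counting error. Overlap of the marks was not particular to this site. Over the whole lists, 33.7% of H3K9me3 peaks lay on an H3K4me3 peak in LPS and 22.4% in PBS. Whether both marks lay on the same chromosomes or in different cells cannot be told apart in these libraries.

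**Figure D3:**
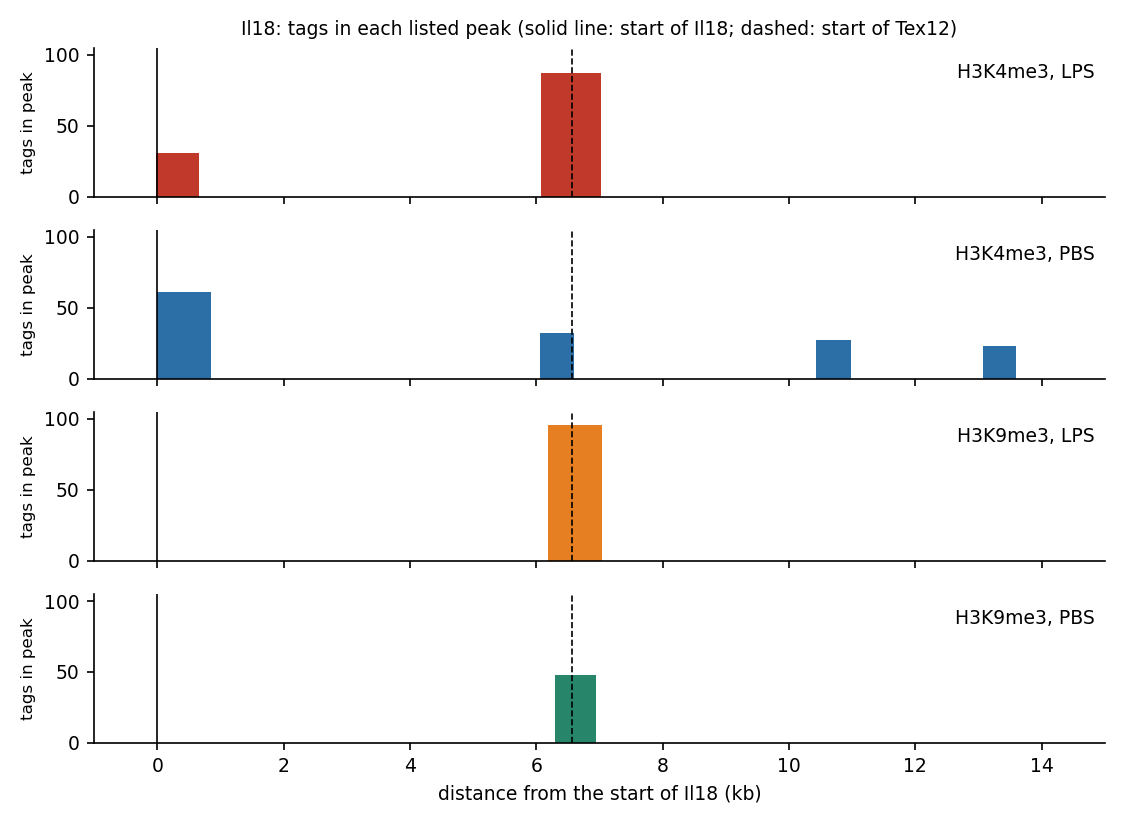
Tags in each listed peak over the first 15 kb of Il18 in the 4 libraries; bar width is the width of the peak, the solid line the start of Il18 and the dashed line that of Tex12. The peak at the start of Tex12 is taller in LPS than in PBS for H3K4me3 (87 and 32 tags) and for H3K9me3 (96 and 48), whereas the peak at the start of Il18 is taller in PBS (31 and 61).

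The 250 bases before the starts of Il18 and Tex12 are printed to show how unlike these neighbouring sites are in sequence. Capitals mark each CpG, the dinucleotide at which mouse DNA is methylated. The stretch before Il18 (chr9:50554450-50554699, plus strand) holds 1 CpG and is 35.6% G or C, and that before Tex12 (chr9:50561269-50561518, minus strand) holds 20 and is 60% G or C.
Il18: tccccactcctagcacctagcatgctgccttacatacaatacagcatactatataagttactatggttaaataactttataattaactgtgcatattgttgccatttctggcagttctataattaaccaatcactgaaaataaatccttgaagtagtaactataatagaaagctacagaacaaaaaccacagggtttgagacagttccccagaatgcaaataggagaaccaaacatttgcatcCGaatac
Tex12: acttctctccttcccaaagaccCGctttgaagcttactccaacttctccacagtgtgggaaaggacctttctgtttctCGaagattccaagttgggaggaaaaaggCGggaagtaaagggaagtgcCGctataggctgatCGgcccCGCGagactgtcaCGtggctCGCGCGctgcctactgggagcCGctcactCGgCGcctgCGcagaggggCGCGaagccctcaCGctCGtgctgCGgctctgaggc

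The members had few CpGs before their starts. Their 11 annotated starts, of 9 genes, had 0 to 5 CpGs in the 250 bases before them, with a median of 3 against 10 over 21255 starts. Naip2 had 0, Casp1 and Il18 had 1 each, and Casp8 had the most with 5. Gsdmd is not among the promoter sequences used here. Over all genes, an H3K4me3 peak within 1 kb was listed for 10.01% of the starts with 2 or fewer CpGs in LPS and 11.1% in PBS, for 45.4% and 48.9% of those with 3 to 9, and for 94.6% and 95.9% of those with 10 or more. Median log2 ratios were close in the 3 classes, at -0.32, -0.37 and -0.37. None of the 11 member starts had a GC box (GGGCGG), which 42.6% of all starts had, or an AP-1 site (TGANTCA), found in 6.14%. A TATA box (TATAAA, 11.6% of all starts) was found at Il18 alone, on the other strand and 175 bases before the start, and a CCAAT box (CCAAT, 35.4%) at Casp8, Il18 and Nlrp3.

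An ETS site of the type that the macrophage factor PU.1 binds (AGGAAGTG, on either strand) preceded the starts of Naip2, Nlrc4 and Pycard, 3 of the 11 member starts, and 3.04% of all starts. The 60 bases next to those starts are shown with the match in capitals, since in each it lay close to the start: its first base was 13 bases before the start in Naip2, 11 in Nlrc4 and 45 in Pycard. They lie on the minus strand at chr13:100202123-100202182, chr17:74459109-74459168 and chr7:127993868-127993927. A match describes the letters only and not the binding of a factor.
Naip2: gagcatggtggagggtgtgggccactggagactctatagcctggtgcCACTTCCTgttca
Nlrc4: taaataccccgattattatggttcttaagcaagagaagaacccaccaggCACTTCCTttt
Pycard: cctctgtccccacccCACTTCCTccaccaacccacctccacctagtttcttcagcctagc

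Whether a peak lay on the start itself differed between the libraries for 5 of the 9 members with an annotated start. An H3K4me3 peak covered an annotated start in LPS for 6 of 9 members, against 54.6% of 17486 genes, and in PBS for 7 of 9, against 58.9%. It did so in PBS and not in LPS for Casp4, Naip2 and Nlrp3, 3 of 9 where all genes gave 6.31%, and in LPS and not in PBS for Casp1 and Nlrc4, 2 of 9 where all genes gave 2.08%. Of these genes, Casp1 and Nlrc4 were near misses, with the PBS peak 53 and 42 bp from the start, and at Nlrp3 the LPS peak was 118 bp away. The LPS peaks nearest the starts of Naip2 and Casp4 were 955 and 2369 bp away. Members had weak peaks, whose edges rest on few tags, and the part of peak strength in this count was not tested.

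**Figure D4:**
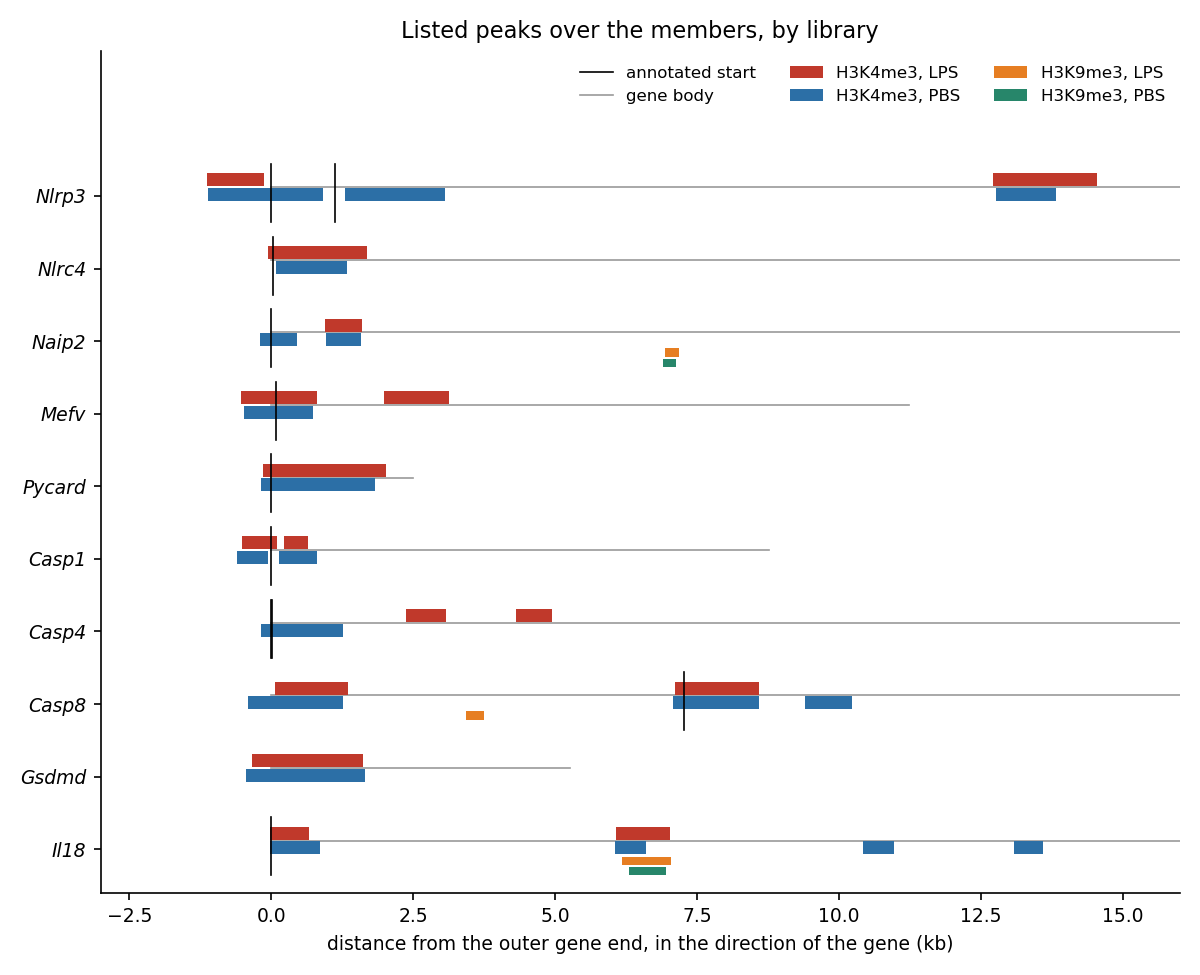
Listed peaks over each member from 3 kb before to 16 kb after the outer gene end, in the direction of the gene (left gene end for Gsdmd), for H3K4me3 in LPS (red) and PBS (blue) and H3K9me3 in LPS (orange) and PBS (green); black lines are annotated starts and grey lines gene bodies. Nlrp3, Naip2 and Casp4 have a PBS peak but no LPS peak on the start, and Il18 has peaks of both marks between 6 and 7.5 kb; peaks of Casp8 and Naip2 beyond 16 kb are outside the plot.

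H3K4me3 away from the gene ends was common among the members. A peak inside the body and beyond 1 kb of either end was listed for 6 of 10 in LPS (Casp4, Casp8, Il18, Mefv, Naip2 and Nlrp3), where all genes gave 23%, and for 4 of 10 in PBS (Casp8, Il18, Naip2 and Nlrp3), where all genes gave 24.7%. Some of these peaks lay on an annotated start in both libraries, that of Casp8 itself and that of Tex12 inside Il18. The members were longer than most, with a median of 26.3 kb against 17.2 kb, and the part of gene length in this count was not tested. In all, the members held 13 H3K4me3 sites with peaks in each list, 5 with a peak in LPS alone and 8 with a peak in PBS alone. Over the 26728 such sites of all protein-coding genes, the shares were 68.2%, 11.5% and 20.3%. Per covered kb, 0 of 9 gene ends of members were 2-fold higher in LPS and 0 in PBS, where all gene ends gave 0% and 0.0912%.

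H3K9me3 peaks were listed over a minority of these genes, as over a minority of all genes. A peak was listed over the body of 3 of 10 members in LPS (Casp8, Il18 and Naip2) and 2 of 10 in PBS (Il18 and Naip2). Over all genes the shares were 26.6% and 24.5%, and over the 14589 genes as long as the shortest to the longest member they were 22% and 18.7%, so the members' shares were near the background. The site in Naip2, about 7 kb from the start, was small and alike in the libraries, at 17 tags in LPS against 15 in PBS (0.14, -0.95 to 1.24). Casp8 had peaks of 21 and 16 tags, 3.44 and 22.3 kb from its outer end, in LPS only. An annotated start lay in an H3K9me3 peak for 0 of 9 members in either library, where all genes gave 3.54% in LPS and 2.5% in PBS. Peaks of both marks overlapped in 1 of 10 members, Il18, in each treatment, where all genes gave 17.3% in LPS and 13.4% in PBS. The H3K9me3 peaks were narrow, with medians of 258 and 245 bp, and peaks held 1.62% and 1.69% of the tags of their libraries, which limits every statement on this mark.

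The other genes of the pathway were read from 6 lists with 59 genes, all found in the gene table. Each list held an H3K4me3 peak at a gene end for 34 of these. Listed in PBS alone were 4 and in LPS alone 0, and 21 had no peak. The 34 had a median log2 ratio of -0.43, with 14 above the median of all gene ends. At least 2-fold higher in LPS were 2 of the 34, where all gene ends gave 0.395%, and at least 2-fold higher in PBS were 2 as well, where all gene ends gave 3.81%. Both genes higher in LPS act beside inflammasomes in innate defence: Zbp1, a sensor of Z-form nucleic acids that can start cell death, had 347 tags in LPS and 148 in PBS (1.38, 1.10 to 1.67), and Irgb10, a GTPase that attacks bacterial membranes, had 174 and 93 (1.05, 0.68 to 1.43). Per covered kb these ratios were 0.22 and 0.60. Of the interleukin 18 receptor genes, Il18r1, named after its values were seen, had 56 and 35 tags (0.83, 0.19 to 1.48), and Il18rap had no peak.

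Among the genes that license inflammasomes or act upstream of them, 12 of 13 had peaks in both lists, and 5 of the 12 lay above the median gene end. P2rx7, the ATP-gated channel that opens before Nlrp3 activation, had 84 tags in LPS and 203 in PBS (-1.12, -1.51 to -0.75), and the adaptor gene Myd88, named after its values were seen, had 292 and 706 (-1.12, -1.33 to -0.92). These were the 2 genes at least 2-fold higher in PBS. Relative to the median gene end, both stood at -0.76. Of the 34 pathway genes with a peak in both lists, 0 were 2-fold below that median and 3 were 2-fold above it. All gene ends gave 1.24% and 1.1%. Nek7, the kinase that binds Nlrp3, had 141 and 277 tags (-0.82, -1.13 to -0.53), and the channel gene Panx1 227 and 434 (-0.78, -1.02 to -0.55). Per covered kb the ratio was -0.82 for P2rx7, -0.39 for Myd88, -0.12 for Nek7 and 0.19 for Panx1.

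Partners in apoptosis and necroptosis lay close to the general shift, with 10 of 12 listed on both sides and a median that stood at -0.07 from that of all gene ends. Ripk1, the kinase at the branch between survival and death, had 220 and 330 tags (-0.43, -0.69 to -0.18), and Mlkl, the executor of necroptosis, 180 and 271 (-0.44, -0.72 to -0.16). Cflar, the inhibitor of caspase-8, had 124 and 173 tags (-0.33). Map3k7, the kinase TAK1 that restrains Ripk1, had 258 and 386 tags (-0.43). The alarmin gene Hmgb1 had 437 and 712 tags (-0.55), the antioxidant regulator Nfe2l2 466 and 682 (-0.40), and Il1rap, the shared receptor subunit of the interleukin 1 family, 180 and 279 (-0.48).

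Ninj1, whose product ruptures the plasma membrane after gasdermin pores have formed, was the pathway gene with the most tags listed on 1 side only. PBS had 1 peak of 1021 tags over 5.84 kb with a score of 228.25, and the LPS list had no peak over the gene or within 1 kb of it, the nearest being 8.53 kb away. The level there in LPS is not known. The other genes listed in PBS only were Nlrp6, Gbp5 and Trim30a, named after their values were seen, with 138, 93 and 115 tags. Over the widened genes the LPS list had 1 or 2 peaks at each, so that Nlrp6 had 135 tags in LPS against 138 in PBS, Gbp5 83 against 93 and Trim30a 80 against 208. Among the other gasdermins, Gsdma, Gsdma3, Gsdmc and Gsdme had no H3K4me3 peak at a gene end in either list, so that Gsdmd was the gasdermin gene with such a peak of the 5 examined. The interleukin 1 genes Il1a and Il1b had none within 1 kb of a gene end either. H3K9me3 peaks lay over 14 of the 59 gene bodies in LPS and 15 in PBS, near the 26.6% and 24.5% of all genes. Nek7 had 16 tags in LPS and 14 in PBS, P2rx7 had 55 and 57, Ripk1 17 and 19, and Hmgb1 21 and 15. Other pathway genes named above had H3K9me3 peaks over the body in 1 list only. Il1rap, Nfe2l2, Map3k7 and Cflar had 45, 45, 41 and 13 tags in LPS alone. Panx1, Gsdmc, Mlkl and Il18r1 had 35, 24, 14 and 14 in PBS alone.

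**Figure D5:**
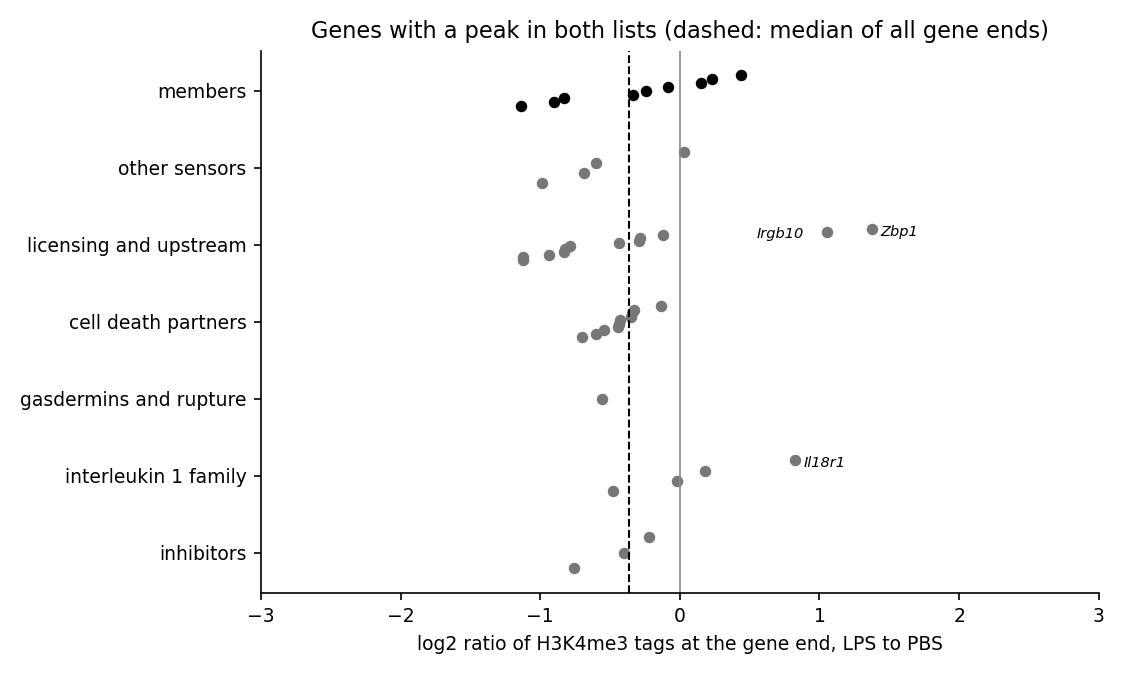
Log2 ratio of LPS to PBS H3K4me3 tags at the gene end for each gene with a peak in both lists, the 9 members in black and the other pathway genes in grey by list; the dashed line is the median of all gene ends. Zbp1 (1.38), Irgb10 (1.05) and Il18r1 (0.83) lie at least 2-fold above that median, and no member does.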

How the data were processed

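Per the file headers, the authors called peaks with MACS 1.4.2 in each library separately and without a control, with 1e-05 as the limit on p and at most 1 tag kept per position. The submitters' processing notes also name CASAVA 1.4, Bowtie 0.12.8, DiffBind and build mm10. Each deposited table gives a peak's position, its count of tags, a score (minus 10 times the log10 of the caller's p-value) and the enrichment as a fold ratio to local background; the fold was not used, and the score only within a list.

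Genes came from a RefSeq table of GRCm38.p6 (the build of mm10), and starts and promoter sequences from RefSeq for 9 of the 10 members. Peaks sharing at least 1 bp with a window were counted whole, scaled by filtered tags, in Python 3.11.15 with scipy 1.17.1; overlaps were checked with bedtools 2.31.1 and the code was tested on simulated data. Irgb10 is Gm12250 in the table. The members and lists were chosen with earlier results of these data known, and the motifs, CpG classes and start coverage after the files were seen. All members are named. Of other pathway genes, the 15 with most tags were named among those 2-fold from the median gene end, listed on 1 side, or with H3K9me3 over the body. Of these 15, 2 are not reported here.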

Additional observations from a re-analysis of the deposited data

How the results depend on the processing

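With 1 library per group, the counts of members rest on single libraries, and gene ends of 27 to 294 tags set the width of the intervals. With a window of 2.5 kb, 1 member, Mefv, was at least 2-fold higher in LPS (1.08) and 3 in PBS, and 0 were listed in PBS only. Over the gene body widened by 1 kb, 1 was 2-fold higher in LPS, and 0 were in PBS only. Per covered kb, relative to the median gene end, and at scores of 100 or more, 0 members were 2-fold higher in PBS. At scores of 100 or more, 5 members had a peak in both lists and 2 in PBS only, and H3K9me3 lay over 1 member in LPS and 1 in PBS. From annotated starts alone, or with at least 50% of a peak inside the window, 2 members were in PBS only. From annotated starts these were Casp4 and Nlrp3. Nlrp3 was read there at the start with more tags, which had 0 in LPS and 291 in PBS within 1 kb. The first start of Nlrp3 had 72 and 149. Gsdmd has no value from annotated starts. Of 66 further values of single members, 55 stayed inside the counting interval of the reported value and 11 moved out of it, among them Nlrp3 (-1.86 at 2.5 kb, 0.11 per covered kb). Causes were not tested, other than that a wider window takes in more peaks. No paired analysis was possible because the labels give no replicate numbers and each group holds 1 library.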
